A study of Mus musculus with 2 samples.

Results

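The genes of DNA replication and of deoxynucleotide synthesis were followed from brown preadipocytes to brown adipocytes in culture. Their 50 members were chosen by name, as the rows of the expression table whose symbol equals that of a member, out of 23361 rows with values. They cover the proteins that mark, load and fire replication origins, the replicative polymerases and their clamp, the enzymes that make deoxynucleotides, and factors that restore chromatin and DNA methylation behind the fork. The rule itself uses no measured value, but the genes were listed with earlier results of these data known. All 50 had a value above 0 in both libraries, so none was lost to a filter on low values.

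RNA-Seq was performed on 2 libraries, 1 of brown preadipocytes at day 0 (D0) and 1 of brown adipocytes at day 7 (D7). Brown preadipocytes are the precursor cells of heat-producing fat. Per the labels, both libraries came from C57BL/6 mice, as cells taken from the brown fat between the shoulder blades of newborns, and the medium of both stages held the thyroid hormone T3 (1 nM) with insulin (0.1 μM). The D7 cells had also been induced for 2 days from D0 on with indomethacin (0.125 mM), dexamethasone (2 μg/ml) and IBMX (0.5 mM). The labels name primary cultures, whereas the methods of the study describe immortalization by a retrovirus that carries large T, a viral protein known to bind the retinoblastoma proteins and so to release E2F factors. The methods also give other amounts of insulin and dexamethasone than the labels. They name insulin and T3 for the differentiation media only, and not for the medium of the preadipocytes. Several pups of either sex were used, and whether their cells were pooled is not given in the sources used here.

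Before a cell divides, the origin recognition complex (ORC) binds DNA, and CDC6 and CDT1 load the MCM2-7 helicase there. CDC45 and GINS then switch the helicase on, and polymerases copy both strands with the help of the PCNA clamp. Many of these genes are known targets of E2F transcription factors and are transcribed mainly in cycling cells. Preadipocytes proliferate, while mature adipocytes have left the cell cycle.

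Levels are given as FPKM, that is, fragments scaled to transcript length and library size, which allows genes of different length to be compared. The ratio of a gene is its FPKM at D7 over that at D0, with neither a pseudocount nor a rescaling between libraries. A gene was called lower at a ratio of at most 0.5 and higher at a ratio of at least 2, the threshold of the study. With 1 library per stage there was no replicate, so no p-value was computed and the spread between cultures is unknown. The range given with a ratio is its 95% Clopper-Pearson interval, from the number of fragments recovered behind both values. Such an interval takes in counting error alone, so it sets library against library and says nothing of how cultures vary.

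The replication genes were lower in the adipocyte library. Of the 50 members, 25 were lower by at least 2-fold at D7 and 0 were higher, while 25 lay within 2-fold. Among all 14986 genes above 0 in both libraries, 13.2% were lower and 18.5% were higher. The median log2 ratio of the members was -1.03, a ratio of 0.490, against 0.02 over all genes. Of the 47 members with FPKM of at least 1 in a library, 23 were lower, with a median log2 ratio of -0.94, where 11.9% of all 11967 genes at that level were lower and their median was -0.03. The ratio was below 1 in 41 members and above 1 in 9. In a bulk sample, fewer cells that express a gene and less of its RNA per cell cannot be told apart.

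**Figure D1:**
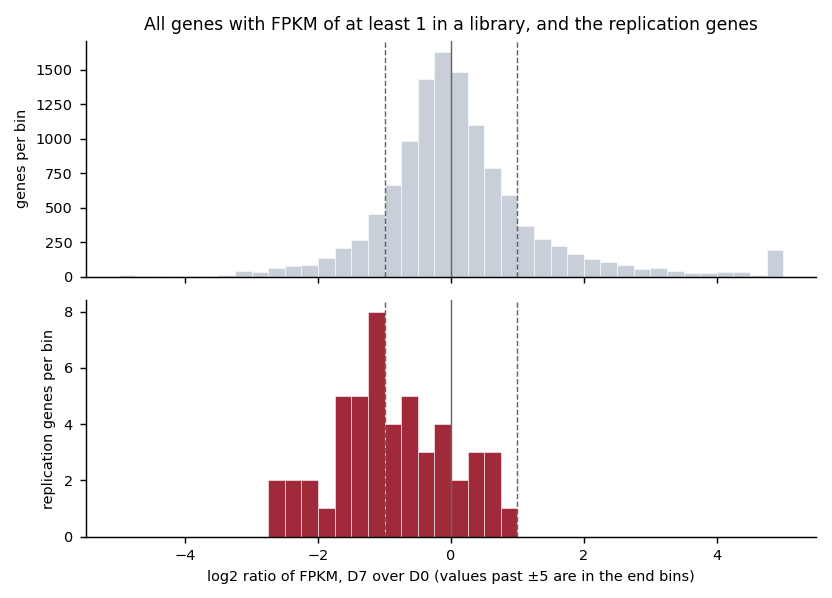
Histograms of the log2 ratio of FPKM, D7 over D0, in bins on the horizontal axis, with the number of genes per bin on the vertical axis, for the 11967 genes with FPKM of at least 1 in a library (top) and for the 50 replication genes (bottom). The solid line marks no difference and the dashed lines mark 2-fold; the replication genes reach from a ratio of 1.75 down to 0.149, so that none lies beyond the right dashed line.

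Counting error separated most members from a ratio of 1. The interval lay wholly below 1 for 37 members and wholly above 1 for 7, and it included 1 for 6, which were Mcm8, Orc2, Orc6, Gins1, Pola1 and Rfc4. Of the 25 lower members, 17 had their whole interval under 0.5, and in the other 8 it held 0.5. Just inside the threshold lay Fen1 (0.457), Prim2 (0.459) and Mcm10 (0.461), and just outside it Gins3 (0.521), Prim1 (0.522) and Pola2 (0.554), whose intervals reached 0.5. The fragments behind a value ranged from 7, for Orc1 at D7, to 3015, for Rpa1 at D0.

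The threshold of the study was probably applied to ratios scaled in another way. In that scaling, values below 0.01 were raised to 0.01 and the median over all rows was divided out of both libraries, so that every ratio above that floor was divided by 1.28, a log2 shift of 0.35. Then 30 members were lower and 0 higher, beside 16.4% lower and 12.1% higher among all 23361 rows, and Mcm8 (0.868), Orc2 (0.906) and Orc3 (0.975) came to lie below 1. With 1 added to each FPKM, 14 members were lower, beside 6.73% of the 14986 genes.

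Marker genes were read in both libraries. Of 10 adipocyte markers, Pparg, Cebpa, Fabp4, Adipoq, Lpl, Plin1 and Cd36 were higher at D7, with ratios from 31.5 to 5850, and Ucp1, Cidea and Elovl3 were listed at 0 at D0 and detected at D7. The preadipocyte markers Pdgfra (52.1 at D0 and 50.7 at D7), Ly6a, Thy1, Pdgfrb, Dpp4 and Cd34 were detected in both libraries, with 2 of these 6 lower at D7 and 1 higher, Cd34 (1.85 at D0 and 15.4 at D7). The proliferation markers Mki67, Top2a, Ccna2, Ccnb1, Cdk1, Bub1, Plk1, Aurkb, Birc5 and Foxm1 were lower in 10 of 10 cases, with a median log2 ratio of -2.27. Macrophage markers were higher at D7 in 10 of 11 cases, none was at 0, and their summed FPKM was 156 at D0 and 583 at D7. At FPKM of at least 1, the lowest ratios of this list were those of Cd14 (1.06) and Lyz2 (2.57) and the highest those of Emr1 (10.2) and Mrc1 (35.8). Their part in the levels of the replication genes was not tested. The endothelial markers Pecam1, Cdh5, Kdr, Tek, Vwf and Cldn5 summed to 1.04 FPKM at D0 and 2.39 at D7, with Cldn5 at 0 in both. Of the muscle markers, Myod1 and Ckm were at 0 in both libraries, and Myog, Myh4 and Tnnt3 were below 1 FPKM in both. Des had 5.74 FPKM at D0 and 3.03 at D7, and Acta1 had 45.4 FPKM at D0 and 1.73 at D7. The depth behind the FPKM values was 21487198 fragments at D0, and 18266291 fragments at D7.

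Promoters are shown for the 3 lowest members that had an E2F-type match and at least 100 fragments at D0, and for the highest member. Tk1, Orc1, Pole2 and Cdc6, with ratios below that of Mcm5, did not meet these conditions. Uhrf1, whose protein guides maintenance methylation to newly copied DNA, had 5.76 FPKM at D0 and 0.861 at D7 (ratio 0.149, 0.110 to 0.200). The helicase subunits Mcm5, with a ratio of 0.223, and Mcm3, with a ratio of 0.312, were the next lowest of this kind. Orc5, a subunit of the origin recognition complex, had the highest ratio, 1.75. The windows below span 250 bases before to 50 after a RefSeq transcript start in GRCm38.p6 and are written 5′ to 3′ along the gene. They lie at chr17:56304063-56304362 on the plus strand for Uhrf1, chr8:75109259-75109558 on the plus strand for Mcm5, chr1:20820263-20820562 on the minus strand for Mcm3 and chr5:22550289-22550588 on the minus strand for Orc5. Capitals mark matches on either strand to the E2F-type words TTTCCCGC, TTTGGCGC, TTTCGCGC and TTTGCCGC.
Uhrf1: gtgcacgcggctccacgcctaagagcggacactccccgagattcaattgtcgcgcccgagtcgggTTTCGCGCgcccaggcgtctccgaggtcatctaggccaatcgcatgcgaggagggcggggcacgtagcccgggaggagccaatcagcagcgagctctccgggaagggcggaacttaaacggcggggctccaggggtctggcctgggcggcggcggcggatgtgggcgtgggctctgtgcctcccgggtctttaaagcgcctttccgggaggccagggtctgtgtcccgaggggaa
Mcm5: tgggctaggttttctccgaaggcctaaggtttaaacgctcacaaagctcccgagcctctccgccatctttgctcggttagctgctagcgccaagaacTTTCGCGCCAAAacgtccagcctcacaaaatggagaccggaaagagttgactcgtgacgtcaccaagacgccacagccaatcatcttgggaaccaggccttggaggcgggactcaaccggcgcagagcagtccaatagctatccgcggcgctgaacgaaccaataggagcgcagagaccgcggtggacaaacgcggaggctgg
Mcm3: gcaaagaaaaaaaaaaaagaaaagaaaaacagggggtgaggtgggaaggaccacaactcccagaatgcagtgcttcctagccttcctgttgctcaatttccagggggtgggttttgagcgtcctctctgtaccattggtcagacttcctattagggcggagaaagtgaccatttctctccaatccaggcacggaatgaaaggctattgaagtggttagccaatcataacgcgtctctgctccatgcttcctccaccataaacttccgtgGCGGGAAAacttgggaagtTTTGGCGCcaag
Orc5: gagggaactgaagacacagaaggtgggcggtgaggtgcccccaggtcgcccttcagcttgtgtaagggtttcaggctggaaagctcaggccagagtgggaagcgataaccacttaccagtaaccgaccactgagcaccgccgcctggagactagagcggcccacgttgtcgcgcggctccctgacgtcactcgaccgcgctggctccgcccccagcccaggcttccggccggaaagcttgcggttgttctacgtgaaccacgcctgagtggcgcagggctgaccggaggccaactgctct

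The Mcm5 window held 2 matches that overlap each other on opposite strands, and the Mcm3 window held 2 matches after the start, at bases 20 and 39. The printed Uhrf1 window held 1, and it belongs to a transcript start inside the annotated gene. Another Uhrf1 window, at chr17:56303087-56303386, spans the start of the annotated gene and held no E2F-type word. The Orc5 window held none of these words. Of the 50 members, 42 had a window in the RefSeq table, while Mcm4, Gmnn, Gins1, Gins2, Gins4, Prim2, Pole and Rfc2 had none. An E2F-type word stood in a window of 17 of these 42 genes (40.5%), against 2.60% of all 27025 genes with a window and 4.69% of the 8896 genes with FPKM of at least 1 in a library. It stood in 11 of the 21 lower members (52.4%) and in 6 of the 21 others (28.6%). Tk1, Rrm2, Tyms, Dut and Chaf1b, all lower, had no such word in their windows, whereas Orc3 and Mcm8, with ratios above 1, had 1 each.

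Other promoter words were spread differently. CCAAT, on either strand, stood in windows of 26 of the 42 members (61.9%), of 41.1% of all genes and of 43.2% of genes with FPKM of at least 1, and it was present in 47.6% of the lower members and 76.2% of the others. The words TTTGAA and TTCGAA of the cell cycle homology region stood in 16.7% of members, 21.7% of all genes and 15.8% of genes with FPKM of at least 1. Matches to words of different kinds overlapped in 1 case. A match is a run of letters and not a measured binding site.

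The MCM2-7 helicase unwinds DNA at the fork, and its 6 subunits act in equal number. Mcm5 (ENSMUSG00000005410.6, chromosome 8, 75109569 to 75128439 in mm10, plus strand) had 5.53 FPKM at D0 and 1.23 at D7, and its ratio of 0.223 (0.171 to 0.288) was the lowest of the 6. Mcm2 had 9.95 FPKM at D0 and 3.07 at D7 (ratio 0.309, 0.260 to 0.365). Mcm3 had 8.69 and 2.71 FPKM (ratio 0.312, 0.257 to 0.377). All of these, together with Mcm6 and Mcm4, were lower. Mcm6 had 14.7 FPKM at D0 and 5.17 at D7 (ratio 0.353, 0.306 to 0.406), and Mcm4 had 9.87 and 4.07 (ratio 0.412, 0.355 to 0.476). Mcm7 differed less, with 14.2 FPKM at D0 and 9.62 at D7 (ratio 0.676, 0.604 to 0.757). Its locus also holds Mir25, Mir93 and Mir106b on the same strand and overlaps Cops6 and Ap4m1 on the other, so its value is uncertain. The FPKM of the highest subunit was 2.66 times that of the lowest at D0 and 7.80 times at D7.

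Mcm8, a related helicase of recombination repair that is no part of that ring, had 0.803 FPKM at D0 and 0.891 at D7, and the ratio of 1.11 (0.745 to 1.65) was not separable from 1 at this depth of 56 and 52 fragments.

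The origin recognition complex was divided between its first subunit and the rest. Orc1 (ENSMUSG00000028587.18, chromosome 4, 108579423 to 108614833, plus strand) had 0.740 FPKM at D0 and 0.135 at D7, from about 45 and 7 fragments (ratio 0.183, 0.0696 to 0.409). No other member had a lower FPKM in either library. With 1 added to each FPKM, the ratio of Orc1 was 0.653, within 2-fold. The FPKM of Orc2 to Orc6 was between 6.70 and 13.0 at D0 and between 7.74 and 13.7 at D7. Orc5 (ENSMUSG00000029012.11, chromosome 5, 22486485 to 22550429, minus strand) had 7.80 FPKM at D0 and 13.7 at D7, and the interval of its ratio from 1.52 to 2.03 reached the threshold. Its deposited locus is shared with the pseudogene Gm15421, which makes its value uncertain.

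Orc4 had 9.26 FPKM at D0 and 11.8 at D7 (ratio 1.28, 1.16 to 1.41), and Orc3 had 7.66 and 9.54 (ratio 1.24, 1.07 to 1.45). Under the library median scaling Orc3 came below 1 and Orc4 to 1.00, and the loci of Orc3 and Orc4 are listed for Akirin2 and Acvr2a as well. Orc2, at 6.70 and 7.74 (ratio 1.16, 0.946 to 1.41), and Orc6, at 13.0 and 11.9 (ratio 0.914, 0.769 to 1.09), were not separable from 1. On the other strand, Orc2 overlaps Nif3l1 and Orc6 overlaps Vps35 (79.8 FPKM at D0 and 81.8 at D7), so both values are uncertain. Relative to Orc2, the FPKM of Orc1 was 0.110 at D0 and 0.0175 at D7.

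CDC6 and CDT1 load the helicase, and geminin, the product of Gmnn, binds CDT1 and blocks loading. Cdc6 had 0.899 FPKM at D0 and 0.198 at D7, from about 46 and 9 fragments (ratio 0.220, 0.0948 to 0.455). Cdt1 had 3.06 FPKM at D0 and 1.17 at D7 (ratio 0.384, 0.265 to 0.545), with the readthrough gene Gm20388 on the same strand. Gmnn lay on the other side of 1, with 6.30 FPKM at D0 and 10.3 at D7 (ratio 1.63, 1.29 to 2.06). Both loaders were thus lower and their inhibitor was not. The FPKM of Gmnn was 2.06 times that of Cdt1 at D0 and 8.76 times at D7.

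**Figure D2:**
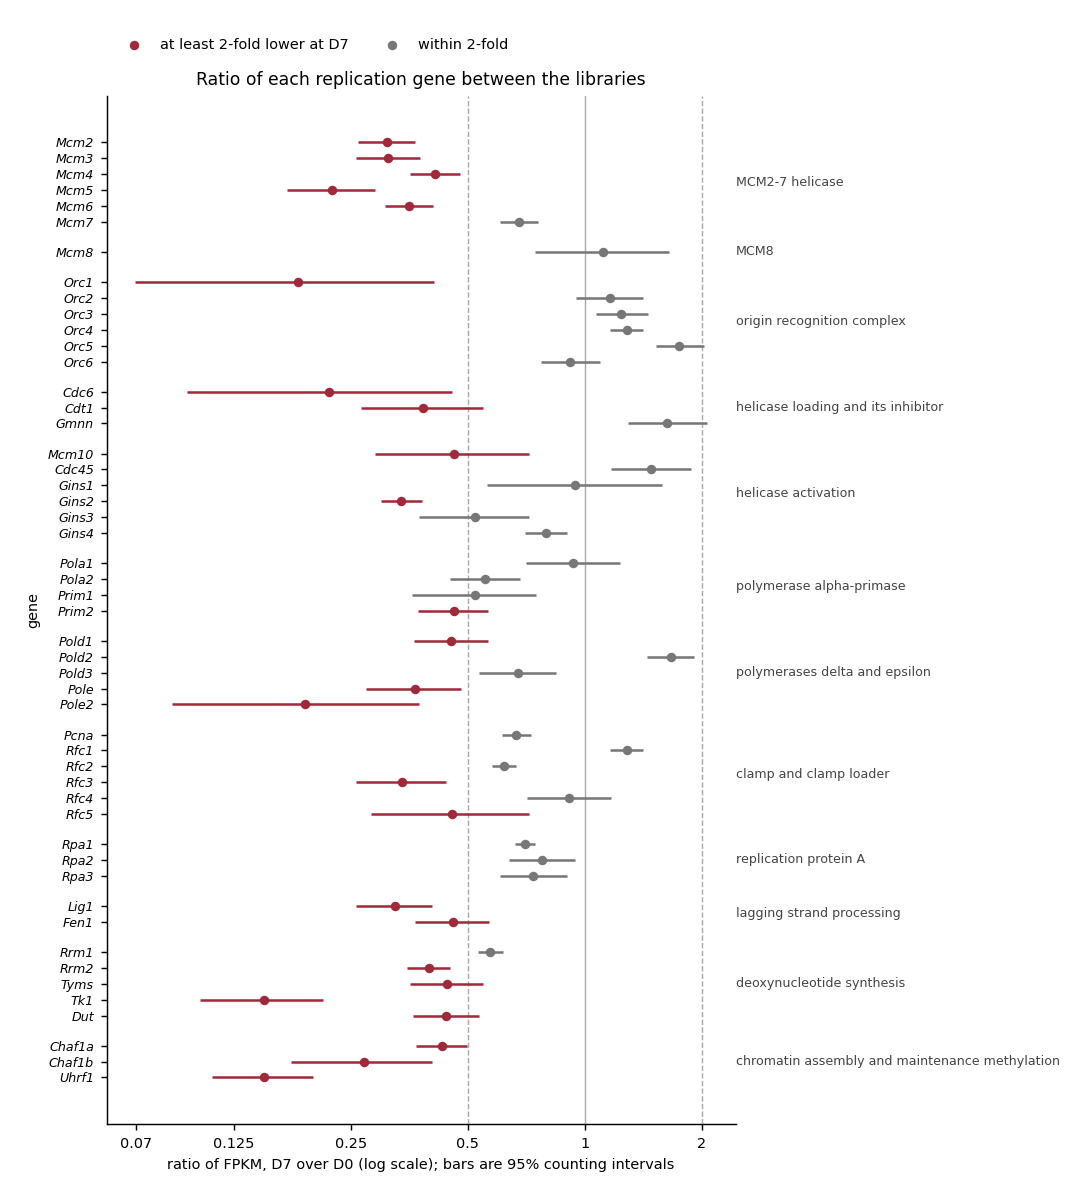
Ratio of FPKM, D7 over D0, on a logarithmic horizontal axis for each of the 50 replication genes, grouped by role on the vertical axis. Points are ratios, bars are 95% counting intervals, the solid line marks 1, the dashed lines mark 0.5 and 2, and red marks the 25 genes lower by at least 2-fold; Orc1, Cdc6 and Pole2 carry the widest intervals among the red points.

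Of the 6 factors that activate the loaded helicase, 5 had a ratio below 1 and 1, Cdc45, had a ratio above 1. Gins2, in the 4-subunit GINS complex, had 14.8 FPKM at D0 and 4.99 at D7 (ratio 0.337, 0.298 to 0.381), but its locus is shared with Gse1 on the other strand (5.10 at D0 and 4.54 at D7). Gins3 had 2.54 FPKM at D0 and 1.33 at D7 (ratio 0.521, 0.374 to 0.717). Gins4 was at 25.3 and 20.1 (ratio 0.796, 0.703 to 0.901), and Gins1 at 1.85 and 1.74 (ratio 0.944, 0.558 to 1.58). FPKM of the highest GINS subunit was 13.7 times that of the lowest at D0 and 15.2 times at D7. Mcm10, which is needed for origins to fire, had 1.04 FPKM at D0 and 0.479 at D7 (ratio 0.461, 0.289 to 0.717), and its ratio was 0.508 when 0.1 was added to each value. Cdc45, the remaining part of the active helicase, had 3.13 FPKM at D0 and 4.63 at D7 (ratio 1.48, 1.17 to 1.87). Cdc45 overlaps Ufd1, which lies on the other strand with 38.5 FPKM at D0 and 42.8 at D7. The value of Cdc45 is therefore uncertain, and its ratio was 1.16 under the library median scaling.

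Polymerase alpha-primase lays down the primers of both strands. Its primase subunits Prim2 and Prim1 had ratios of 0.459 (0.372 to 0.563) and 0.522 (0.359 to 0.749), from FPKM of 8.64 and 3.34 at D0 and 3.96 and 1.74 at D7. The accessory subunit Pola2 had 6.24 FPKM at D0 and 3.45 at D7 (ratio 0.554, 0.450 to 0.679). The catalytic subunit Pola1 was at 1.08 and 1.01 (ratio 0.931, 0.704 to 1.23). Only Prim2 of these 4 subunits was lower by 2-fold, and the intervals of Prim1 and Pola2 reached 0.5.

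Polymerase epsilon, which copies the leading strand, was lower in both subunits of the set. Pole had 1.47 FPKM at D0 and 0.536 at D7 (ratio 0.365, 0.274 to 0.481), and Pole2 had 1.90 and 0.362 (ratio 0.190, 0.0868 to 0.373) on 62 and 10 fragments. In polymerase delta, which copies the lagging strand, the subunits differed in direction. The catalytic Pold1 had 4.36 FPKM at D0 and 1.98 at D7 (ratio 0.453, 0.363 to 0.562), and Pold3 had 3.53 and 2.37 (ratio 0.671, 0.534 to 0.840). Pold2 was at 10.5 and 17.5 (ratio 1.66, 1.44 to 1.91). The locus of Pold2 in the table is also that of Aebp1, which had 273 FPKM at D0 and 66.6 at D7, so the value of Pold2 is uncertain.

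Pcna, the sliding clamp, was the most abundant member in both libraries, with 50.02 FPKM at D0 and 33.3 at D7, and the ratio of 0.666 (0.610 to 0.726) lay below 1 and above 0.5, at percentile 22.4 of the ratios of genes with FPKM of at least 1. Replication factor C loads this clamp. Of its 5 subunits, Rfc3 had 10.7 FPKM at D0 and 3.60 at D7 (ratio 0.338, 0.258 to 0.439), and Rfc5 had 5.59 and 2.55 (ratio 0.456, 0.281 to 0.719). These 2 subunits were lower, and the others were not. Rfc2 was at 20.9 and 12.9 (ratio 0.618, 0.575 to 0.665), Rfc4 at 6.74 and 6.14 (ratio 0.912, 0.710 to 1.17) and the large subunit Rfc1 at 8.01 and 10.3 (ratio 1.28, 1.16 to 1.41), which became 1.00 under the library median scaling. Rfc4 overlaps Eif4a2, whose FPKM was 130 at D0 and 124 at D7.

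Replication protein A coats single-stranded DNA at forks and at sites of repair, and its 3 subunits had the narrowest range of ratios of the complexes described. Rpa1 had 28.7 FPKM at D0 and 20.0 at D7 (ratio 0.699, 0.659 to 0.742), Rpa3 had 25.3 and 18.6 (ratio 0.737, 0.603 to 0.898) and Rpa2 had 7.50 and 5.82 (ratio 0.776, 0.637 to 0.944). All 3 intervals lay between 0.5 and 1. The lagging strand enzymes were both lower. Lig1, which seals its fragments, had 5.95 FPKM at D0 and 1.93 at D7 (ratio 0.325, 0.258 to 0.405), and Fen1, which trims them, had 7.22 and 3.30 (ratio 0.457, 0.366 to 0.566). The deposited locus of Lig1 is also that of 6330408A02Rik (2.04 FPKM at D0 and 2.13 at D7). Fen1 overlaps Tmem258 on the other strand (206 at D0 and 140 at D7), so both values are uncertain.

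Of the 5 enzymes of deoxynucleotide synthesis, 4 were lower. Thymidine kinase (Tk1, ENSMUSG00000025574.13, chromosome 11, 117815526 to 117826092, minus strand), which salvages thymidine, had 10.2 FPKM at D0 and 1.52 at D7, from about 277 and 35 fragments. The ratio of 0.149 (0.102 to 0.212) lay at percentile 1.19 among genes with FPKM of at least 1. Tk1 and Afmid, which lies on the other strand with 1.54 FPKM at D0 and 1.71 at D7, share a deposited locus.

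Ribonucleotide reductase makes deoxynucleotides from ribonucleotides, and its small subunit is known to follow the cell cycle more closely than the large one. Rrm2, the small subunit, had 22.5 FPKM at D0 and 8.91 at D7 (ratio 0.396, 0.349 to 0.450). Rrm1, the large subunit, was at 24.8 and 14.2 (ratio 0.571, 0.529 to 0.616), and these intervals did not overlap. Rrm2 had 0.905 times the FPKM of Rrm1 at D0 and 0.629 times at D7. Tyms, which makes thymidylate, had 4.94 FPKM at D0 and 2.18 at D7 (ratio 0.441, 0.354 to 0.546). Dut, which removes dUTP, had 10.1 and 4.41 FPKM (ratio 0.439, 0.360 to 0.534).

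All 3 chromatin genes were lower. CAF-1 places histones on new DNA, and its subunit Chaf1b had 3.52 FPKM at D0 and 0.949 at D7 (ratio 0.270, 0.175 to 0.403), while Chaf1a was at 5.89 and 2.52 (ratio 0.428, 0.368 to 0.496). Uhrf1 (ENSMUSG00000001228.14, chromosome 17, 56303321 to 56323486, plus strand), given above with a promoter window, lay at percentile 1.20 of the ratios. No other gene overlaps it in the annotation. Chaf1a and Uhrf1 are 231032 bp apart.

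**Figure D3:**
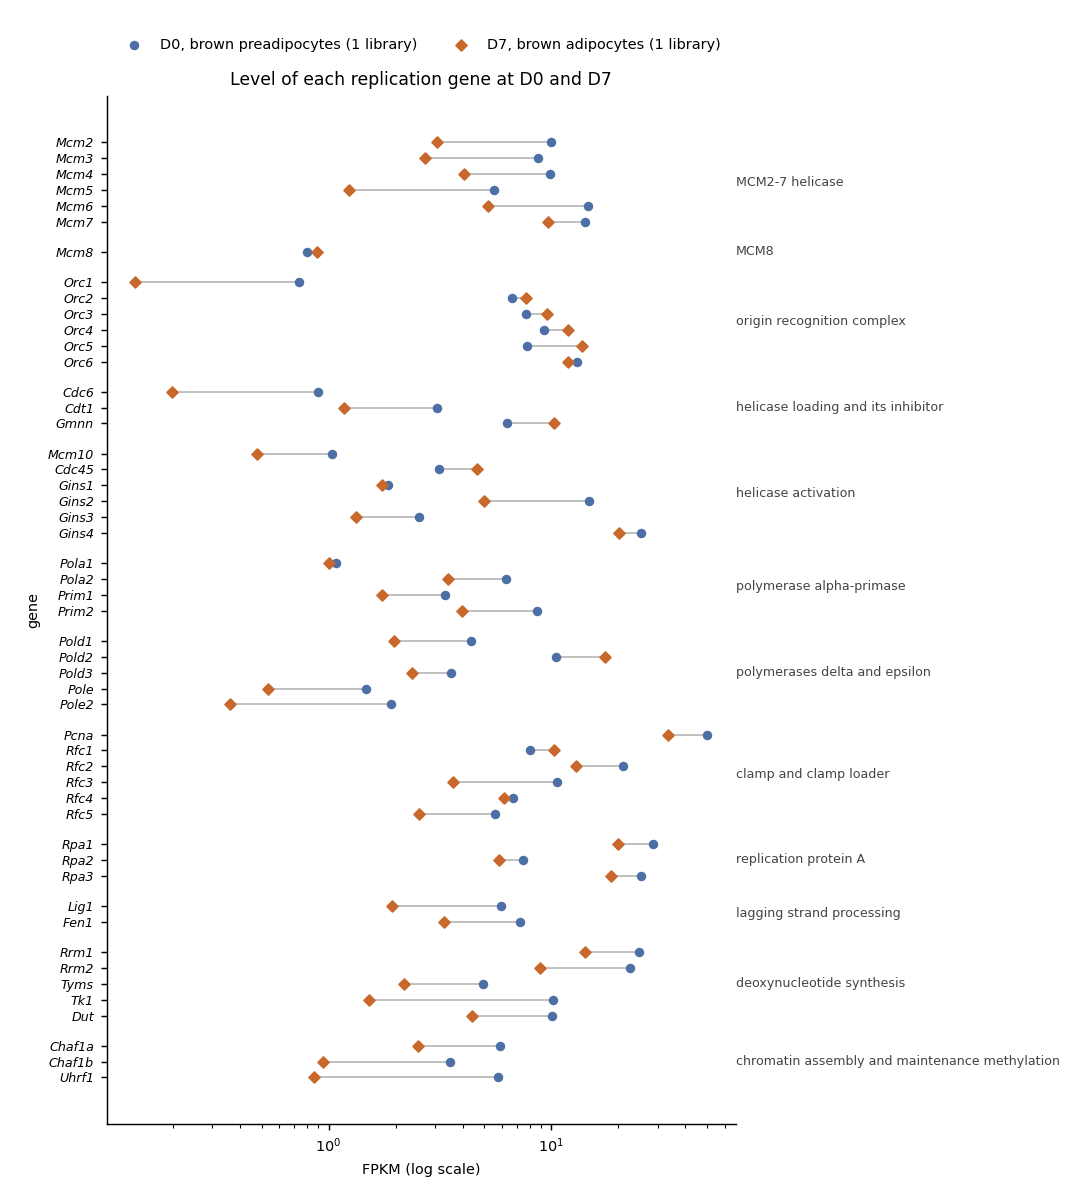
FPKM on a logarithmic horizontal axis for each of the 50 replication genes, grouped by role on the vertical axis, with circles for the D0 library and diamonds for the D7 library joined by a line. Diamonds lie to the left of circles in 41 genes, Pcna is rightmost and Orc1 is leftmost in both libraries.

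By level, the members lay between 0.740 and 50.02 FPKM at D0 and between 0.135 and 33.3 at D7. Their median FPKM was 6.98 at D0 and 3.53 at D7, and 47 members at D0 and 42 at D7 had an FPKM of at least 1. The summed FPKM of the members was 473 at D0 and 313 at D7 (ratio 0.663), which is closer to 1 than the median ratio of 0.490. Abundant genes such as Pcna, Rpa1, Gins4 and Rrm1 had ratios between 0.5 and 1, while Rrm2, at 22.5 FPKM at D0, was lower. At the low end the FPKM of Orc1 and Cdc6 at D7 rested on fewer than 10 fragments. At a threshold of 4-fold, 3.86% of all genes above 0 in both libraries and 6 members were lower, which were Tk1, Uhrf1, Orc1, Pole2, Cdc6 and Mcm5.

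The values of genes that overlap others could mix reads, since the use of strand in counting is not given in the sources used here. The table lists the locus of 9 members for another gene as well. Among the 30 members with neither such a row nor an overlapping protein-coding, antisense, processed transcript or lincRNA gene, a set chosen after seeing the data, 15 were lower and 0 higher, and the median log2 ratio was -1.03. Of the 9 members with ratios above 1, Mcm8, Gmnn and Rfc1 are in this set. The lower members outside it are Orc1, Cdt1, Gins2, Pole, Pole2, Rfc5, Lig1, Fen1, Tk1 and Chaf1a.

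Further genes of the same processes were counted apart, beside 13.2% lower and 18.5% higher among all genes above 0 in both libraries. Of 37 other replication factors, 10 were lower and 1 was higher, with a median log2 ratio of -0.38. Among those with FPKM of at least 1, the lowest ratios were those of Top2a, which untangles DNA and is also in the proliferation list (0.162, 0.137 to 0.191), and Clspn, a checkpoint adaptor (0.278, 0.190 to 0.397), and the highest were those of Pole4, a small subunit of polymerase epsilon (2.83, 2.59 to 3.09), and the helicase Recql4 (1.91, 1.30 to 2.83). Of 41 genes that supply nucleotides, 13 were lower and 2 were higher, with a median of -0.33. Dctd, which deaminates dCMP on the way to thymidylate, had 6.71 FPKM at D0 and 1.02 at D7 (ratio 0.152, 0.104 to 0.215), and Mthfd1l, an enzyme of mitochondrial folate metabolism, had 9.82 and 2.20 (ratio 0.224, 0.185 to 0.270). The 2 higher genes were Uck1, a uridine and cytidine kinase, at 16.1 and 134 (ratio 8.30, 7.63 to 9.03), and Impdh1, of guanine nucleotide synthesis, at 25.9 and 81.6 (ratio 3.15, 2.95 to 3.36).

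Genes listed for mitochondrial DNA replication, which take in transcription factors of that DNA, lay mostly on the other side of 1. Of 17, 0 were lower and 0 higher by 2-fold, 12 had a ratio above 1, and the median log2 ratio was 0.36, which is close to the shift of 0.35 under the library median scaling. The highest were the nuclease Mgme1 (1.86, 1.52 to 2.29) and the transcription factor Tfb2m (1.84, 1.65 to 2.06), and the lowest Rnaseh1 (0.681, 0.546 to 0.847) and Top3a (0.713, 0.589 to 0.861). Of 22 genes of large ribosomal subunit proteins, all had a ratio below 1 and 3 were lower by 2-fold, with a median of -0.88, between 0.358 for Rpl30, 0.397 for Rpl12, 0.617 for Rpl3 and 0.657 for Rpl11. Their range of ratios was narrower than that of the replication genes. Over all genes above 0 in both libraries, 13.2% were lower and 18.5% higher by 2-fold.

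**Figure D4:**
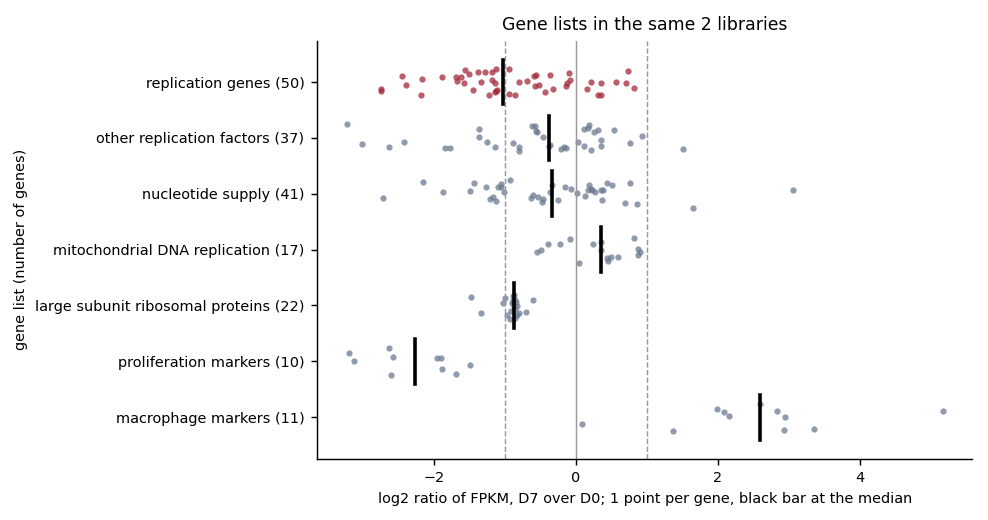
Log2 ratio of FPKM, D7 over D0, on the horizontal axis for gene lists on the vertical axis, with 1 point per gene, a black bar at the median and the number of genes in parentheses. The solid line marks no difference and the dashed lines mark 2-fold; the plotted medians run from -2.27 for proliferation markers through -1.03 for the replication genes to 2.59 for macrophage markers.

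Several replication genes start next to a gene that is transcribed away from them. For 14 members such a start lies within 1000 bp on the opposite strand, and 11 of these 14 neighbours had a ratio above 1, as did 50.6% of all genes. Under the library median scaling 5 of the 14 stayed above 1, and the share of all genes above 1 was not computed for that scaling. Pole and Pxmp2, a gene of a peroxisomal membrane protein, start 120 bp apart, and Pxmp2 had 0.943 FPKM at D0 and 21.3 at D7 (ratio 22.6, 13.9 to 39.2) beside 0.365 for Pole. Mcm4 and Prkdc, a kinase of DNA repair, start 466 bp apart, and Prkdc was at 1.84 and 2.88 (ratio 1.57, 1.39 to 1.76) beside 0.412 for Mcm4. In both pairs the ratios lay on opposite sides of 1. Orc1 and Prpf38a start 87 bp apart, with ratios of 0.183 and 0.733 (0.639 to 0.839). Next to Mcm8, Trmt6 starts 86 bp away and was the only lower neighbour, at 12.4 and 6.16 (ratio 0.495, 0.431 to 0.568). The 2 higher neighbours, beside 18.5% higher among all genes, were Pxmp2 and Ap4m1. Ap4m1 starts 420 bp from Mcm7 and was at 5.36 and 12.1 (ratio 2.25, 1.98 to 2.55), beside 0.676 for Mcm7.

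**Figure D5:**
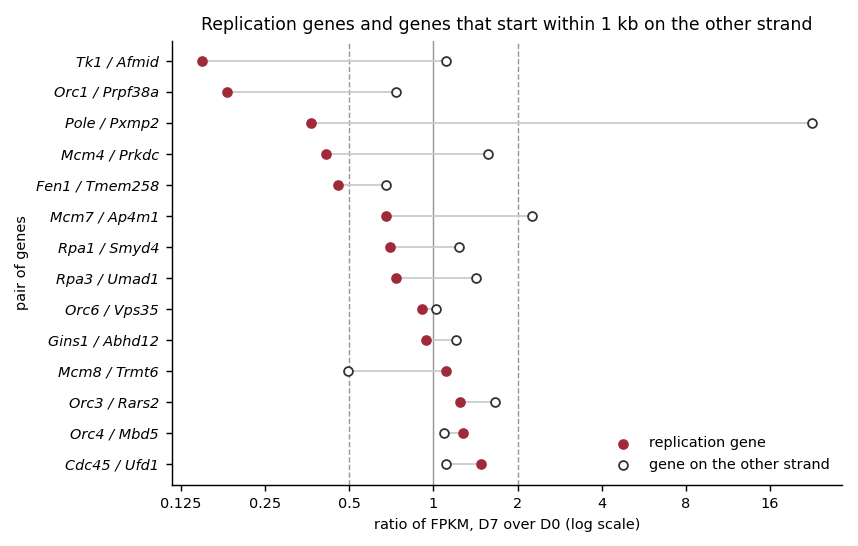
Ratio of FPKM, D7 over D0, on a logarithmic horizontal axis for 14 replication genes (filled circles) and for the gene that starts within 1000 bp on the opposite strand (open circles), with a line joining each pair on the vertical axis. The solid line marks 1 and the dashed lines mark 0.5 and 2; the widest gap is that of Pole at 0.365 and Pxmp2 at 22.6.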

How the data were processed

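RNA-Seq of 2 libraries, 1 at D0 and 1 at D7, was used. The authors removed reads with adaptors, unknown or low quality bases, duplicates and rRNA, ran SOAP2 against mm10 and against gene sequences, and deposited FPKM values, 1 for each gene at each stage. The submitters' processing notes name Bowtie2. GeneSpring is named in the study for expression values and changed genes. The use of strand in counting is not given in the sources used here. Of 27324 rows, 3963 held no value and were left out.

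From the deposited FPKM values, ratios of D7 over D0 were computed without a pseudocount and called at 2.0-fold, the threshold in the methods of the study. Those methods name no floor and no scaling. The totals of changed genes in the design text are met when values are floored at 0.01 and medians are divided out, and not by unscaled ratios, so the ratios behind them were probably scaled in that way. Fragments behind a value were worked out on 602 single-exon genes (exon of 600 bp or more), with 180 bp taken from the length at D0 and 182 bp at D7. Up to 20 fragments, all 79 values at D0 and all 90 at D7 were then whole within 0.1. Lengths of other genes came from GENCODE M21 transcripts, so their fragments are approximate. Intervals are Clopper-Pearson intervals at 95%. Promoter windows came from the RefSeq table of GRCm38.p6, and motifs were counted as exact words on both strands.

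The members and the gene lists were chosen with earlier results of these data known. All 50 members are named. Of another list, the 2 lowest and 2 highest ratios at FPKM of at least 1 are named, and all genes of a list of 10 or fewer. Promoters are printed for the 3 lowest members with an E2F-type match and 100 fragments at D0, and for the highest member. Lists are described by counts and medians, with no set test. The alternatives were pseudocounts, a floor, scalings, filters, summed rows and a 4-fold threshold, and, chosen after seeing the data, members without a shared or overlapping locus. The scripts were tested on simulated data. The software was matplotlib 3.10.9, scipy 1.17.1, pandas 2.3.3 and numpy 2.4.6 under Python 3.11.15.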

Additional observations from a re-analysis of the deposited data

How the results depend on the processing

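The count of 25 lower members was 14 with 1 added to each FPKM (6.73% of all genes), 6 at a 4-fold threshold (3.86% of all genes) and, among the 30 members without a shared or overlapping locus, 15, where fewer genes were counted. Under the other alternatives it lay between 23 and 30, and no member was higher under any alternative run. The median log2 ratio lay between -1.38 and -0.66. Of 547 ratios of single members under an alternative, 502 stayed within their counting interval, 45 left it, and 0 of the called ratios changed sign. The filters, the floor alone and the summed rows leave each of these ratios as it was, so they could not move any. All ratios that left their interval did so with 1 added to each FPKM or under the library median scaling. Under that scaling most members left their interval. Of the 25 lower members, 14 were lower under every alternative at 2-fold other than the one chosen after seeing the data. No paired analysis was possible because each stage has 1 library, and for the same reason no replicate could be left out. Depth limits the members with few fragments, such as Orc1 and Cdc6.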

Other observations

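The genes in this paragraph were chosen after their values were seen. Dnmt1, the maintenance methyltransferase that UHRF1 recruits, had 12.4 FPKM at D0 and 4.83 at D7 (ratio 0.390, 0.350 to 0.433), beside 0.149 for Uhrf1. Rrm2b, the small subunit of ribonucleotide reductase used outside S phase, had 3.32 FPKM at D0 and 5.34 at D7 (ratio 1.61, 1.39 to 1.86), beside 0.396 for Rrm2. The mitochondrial thymidine kinase Tk2 was at 9.63 and 12.3 (ratio 1.28, 1.13 to 1.46), beside 0.149 for Tk1. Samhd1, which breaks down deoxynucleotides, was at 17.5 and 22.4 (ratio 1.29, 1.20 to 1.38). Ticrr, which acts in origin firing, had 0.670 FPKM at D0 and 0.125 at D7 (ratio 0.186, 0.103 to 0.317). Dbf4, the activator of the origin firing kinase CDC7, had 6.70 FPKM at D0 and 1.96 at D7 (ratio 0.292, 0.226 to 0.375), while Cdc7 itself had a ratio of 0.767 (0.502 to 1.16). The ratios of Tk2 and Samhd1 lie close to the factor of 1.28 that division of each library by its median takes out.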
